A study of Mus musculus with 2 samples.

Results

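The genes described here encode the proteasome and its inducible form, the immunoproteasome. They were taken as every non-control probe whose gene name on the wild-type array begins with Psm, a letter from a to g and a digit. The rule found 70 spots of 61 probes with 49 gene names. One probe named Psme2 lies on another chromosome than the rest of Psme2 and was kept apart, which gives 50 genes of the 31881 genes and unnamed transcripts on the array. Of the 50, 48 were measured, meaning well above background, on both arrays.

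RNA was from liver sinusoidal endothelial cells (LSEC), which form the porous wall of the hepatic capillaries. It came as 1 wild-type and 1 ob/ob sample, from male mice aged 8 weeks. Mice of the ob/ob genotype make no functional leptin, the satiety hormone of fat tissue, and grow obese. Livers of both genotypes were digested with collagenase and the cells were kept overnight in medium with serum. How endothelial cells were separated from other liver cells is not given in the sources used here. Each RNA was hybridised to 1 Agilent array with a single dye, so each genotype is 1 sample on 1 array. How many mice gave each sample is not established here. The genotypes could not be tested against each other, p-values are left out, and precision is limited by having 1 array for each.

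The proteasome is the protease complex that degrades proteins marked with ubiquitin. Its barrel-shaped core is built from rings of alpha and beta subunits, and the beta1, beta2 and beta5 subunits, encoded by Psmb6, Psmb7 and Psmb5, cut the substrate. Interferon-gamma induces replacement subunits for these sites, encoded by Psmb9, Psmb10 and Psmb8, and the core that contains them produces more peptides suited to MHC class I molecules. The core is opened by a regulatory particle of ATPases (Psmc genes) and non-ATPase subunits (Psmd genes), or by PA28, a ring of Psme1 and Psme2 that interferon-gamma also induces. LSEC take up and present antigens to T cells in the liver.

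All differences below are ob/ob minus wild-type on a log2 scale, after each array was divided by the 75th percentile of its own signals, which was 989 for wild-type and 1430 for ob/ob. The error given with a difference is the SD that the scanner software assigns to the spots, about 0.20 for these bright probes. It holds no spread between mice. The median difference of all 18139 genes measured on both arrays was -0.12.

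The values of most inducible subunits rest on 1 spot of 1 probe per array, so some probes of the catalytic subunits are shown. They are 60 bases long, and their coordinates are on mouse build mm9 as the files give them. The Psmb8 probe lies at chr17:34337771-34337830 and the dimmer Psmb5 probe at chr14:55233161-55233220 on the minus strand. Capitals mark the bases that are identical when these probes are laid over each other without gaps at the best shift, 31 of 50 overlapping bases.
Psmb8: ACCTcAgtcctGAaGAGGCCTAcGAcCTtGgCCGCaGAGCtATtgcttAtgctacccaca
Psmb5: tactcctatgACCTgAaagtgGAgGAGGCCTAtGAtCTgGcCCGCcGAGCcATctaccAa
These are the only pair among the inducible subunits and their counterparts whose probes matched over more than 50% of the overlap. The brighter Psmb5 probe, which gives the value of Psmb5 in the comparisons below, shared 21 of 57 bases with the Psmb8 probe. The Psmb9 and Psmb6 probes shared 21 of 54 bases at their best shift and the Psmb10 and Psmb7 probes 23 of 56. The Psmb9 probe, which carries the largest difference, lies at chr17:34319174-34319233 on the minus strand.
Psmb9: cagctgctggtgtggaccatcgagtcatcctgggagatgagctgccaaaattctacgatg

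Among all proteasome genes, Psmb9 was the member with the largest difference and the only one past 2-fold. Its signal was 1374 in wild-type and 4080 in ob/ob LSEC, a scaled log2 difference of 1.04 (scanner-error SD 0.20), or 2.05-fold. At this fold 1 of 48 members was higher and 0 lower, while 5.82% of all measured genes passed this fold upwards and 2.29% downwards. The difference of Psmb9 exceeded that of 94.4% of all measured genes. The shares of members past 2-fold are thus no larger than those of the array as a whole. The value of Psmb9 was under 2-fold in 2 of 10 alternative settings, at 0.76 with scaling on the array medians and at 0.997 with normexp background correction and quantile normalization.

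The other inducible catalytic subunits were higher by less. Psmb10, the inducible beta2 subunit, had signals of 14026 and 24400, a difference of 0.27 (SD 0.20). Psmb8, the inducible beta5 subunit, went from 10233 to 17600, a difference of 0.25 (SD 0.20). Each difference is only slightly larger than the error of the scanner, and neither reached 1.5-fold. Both turned to values just below 0, -0.01 for Psmb10 and -0.03 for Psmb8, when the arrays were scaled on their medians, a setting that moves every difference on the array by -0.28.

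The constitutive catalytic subunits differed the other way or not beyond the error. Psmb5, the beta5 subunit with chymotrypsin-like activity, had signals of 109383 and 105000, a difference of -0.59 (SD 0.20). Its dimmer probe gave -0.44. Psmb6, the beta1 subunit, had signals of 81869 and 91500 and a difference of -0.37. Psmb7, the beta2 subunit with trypsin-like activity, had signals of 5755 and 8610 and a difference of 0.05. The larger raw signals of Psmb6 on the ob/ob array thus became a lower scaled value, since the ob/ob array was brighter as a whole.

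Set against its counterpart at the same catalytic site, each inducible subunit was higher. The difference of Psmb9 exceeded that of Psmb6 by 1.41 (SD 0.29 from both scanner errors), a 2.66-fold shift of the ratio between the genotypes. Psmb8 exceeded Psmb5 by 0.84 (SD 0.29), a 1.79-fold shift. Psmb10 exceeded Psmb7 by 0.22 (SD 0.29), which is within the scanner error. The 3 shifts were 1.09, 0.65 and 0.30 in the same order when each gene was centred on the trend of genes of its signal level. Over the 10 alternatives the shift of Psmb9 over Psmb6 was lowest at 0.94, with normexp and quantile normalization. These values compare how far the members of a pair moved, and say nothing about their relative amounts within a cell.

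PA28 did not share the higher values of the catalytic subunits. Psme1 was spotted 10 times on each array, which gives it the best-measured value of all members. Its wild-type signals ran from 13530 over a median of 14229 to 14976, and its ob/ob signals from 18600 over 21100 to 21700. The SD over spots was 3.31% of the mean for wild-type and 4.88% for ob/ob. After scaling, the 10 differences ran from -0.08 to 0.08 with a mean of 0.01 ± 0.06 (SD, n = 10 spots of 1 array per genotype), and 6 of 10 were above 0. The scaled values of Psme1 in the genotypes therefore overlapped within the technical spread of spots. Psme2, its partner in the ring, gave a difference of -0.30 with the brighter probe (signals 52866 and 62200) and 0.07 with the dimmer one (13347 and 20300).

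The 31 constitutive subunits of the core and the regulatory particle had a median difference of -0.33, within a range from -0.63 to 0.05. Of these, 28 were below 0, as were 62.7% of all measured genes, and 25 were below the median of all genes. The 5 inducible members Psmb8, Psmb9, Psmb10, Psme1 and Psme2 had a median of 0.25, with 4 of 5 above 0, as were 37.3% of all measured genes. The medians differ by 0.58. The lowest of the inducible catalytic subunits, Psmb8 at 0.25, lay above the highest constitutive subunit, Psmb7 at 0.05, so that Psmb8, Psmb9 and Psmb10 did not overlap with any of the 31. Among all measured genes, the difference of Psmb8 exceeded that of 79.8% and the difference of Psmb10 that of 80.6%. The place of Psmb8, Psmb9 and Psmb10 above all 31 was the same under all 10 alternative settings, whereas the sign of the medians was not. Several of these settings could hardly change that place. Scaling on the array medians shifts every gene alike, no member spot was flagged, and the authors' table holds the same ratio. Settings that choose among probes leave Psmb8, Psmb9 and Psmb10 as they are, since each has 1 probe.

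**Figure D1:**
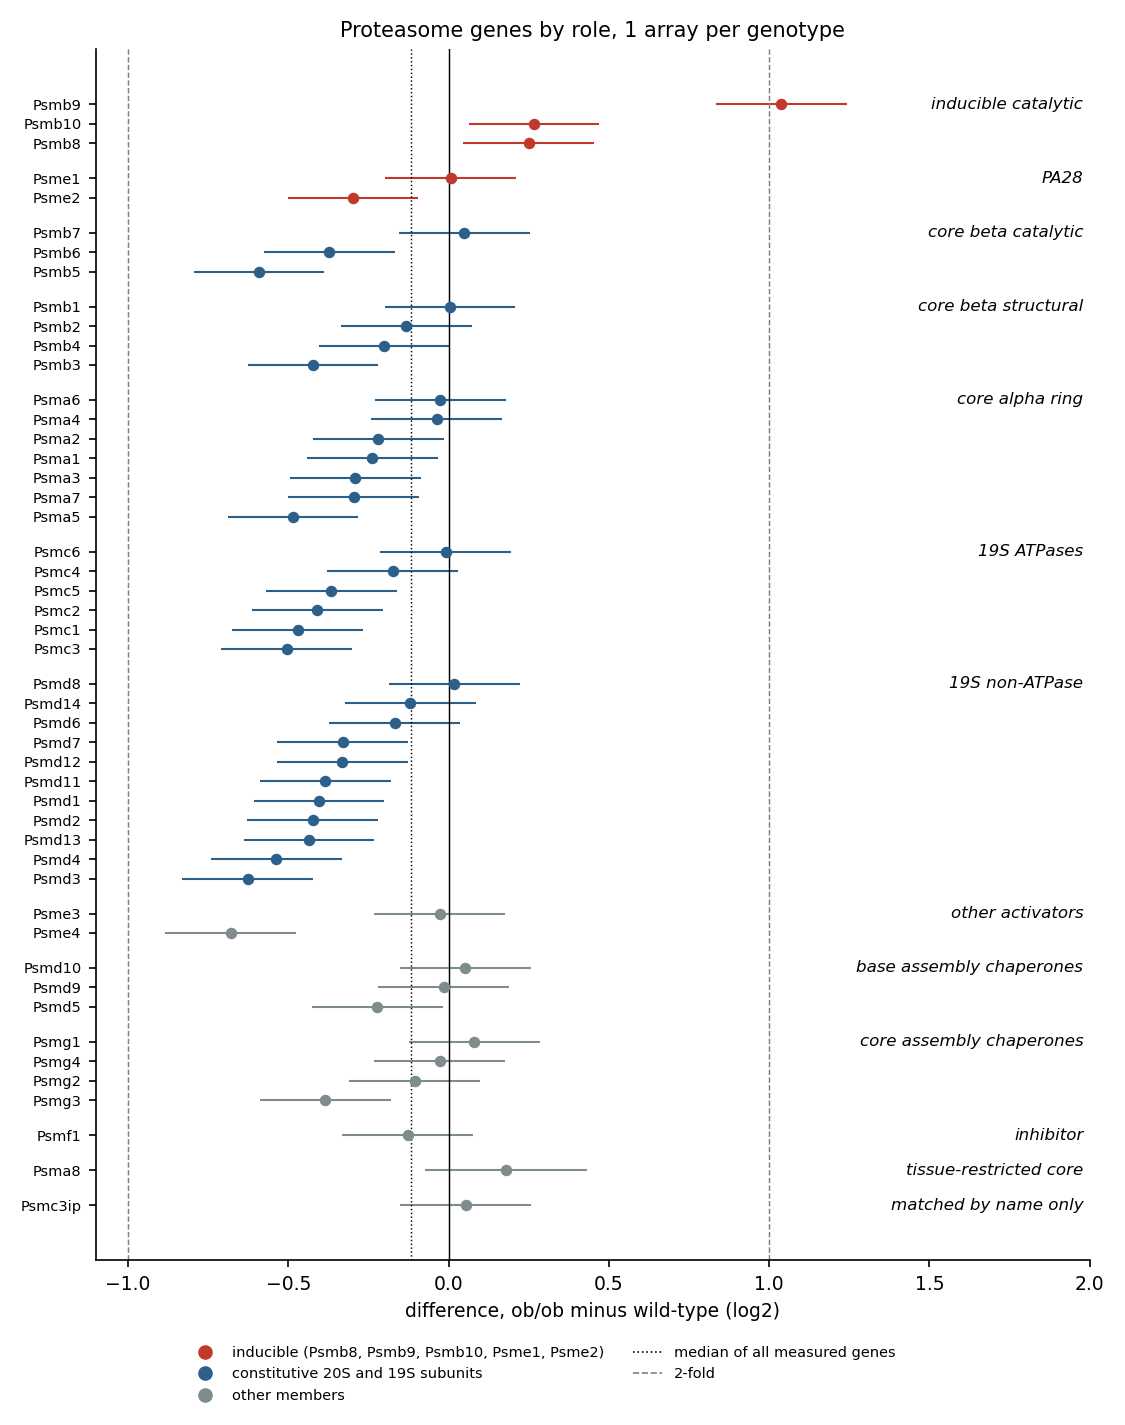
Difference between ob/ob and wild-type LSEC (horizontal axis, log2) of the 48 proteasome genes measured on both arrays, grouped by role, with points for each gene and bars for the scanner-error SD. Psmb9 at 1.04 stands to the right of all others, Psmb10 and Psmb8 lie near 0.25, and the 31 constitutive subunits in blue lie between -0.63 and 0.05.

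The alpha subunits, which form the outer rings and the gate of the core, were all below 0, as were 62.7% of all measured genes. The 7 genes Psma1 to Psma7 had a median of -0.24, from -0.49 for Psma5 (signals 67248 and 69500) to -0.03 for Psma6 (24703 and 35100). Of the structural beta subunits, Psmb3 was lowest at -0.42 (63314 and 68300) and Psmb1 highest at 0.00 (16543 and 24000). Psmb4 and Psmb2 lay between them at -0.20 and -0.13. None of these core genes reached 1.5-fold. Centred on the trend of genes of their signal level, the 7 alpha subunits had a median of 0.10. Of these, 6 were then above 0, beside 51.7% of all measured genes.

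The regulatory particle had the lowest role medians among the constitutive subunits. Its 6 ATPases, which unfold the substrate and feed it into the core, had a median of -0.39. All of them were below 0, as were 62.7% of all measured genes. Psmc3 was lowest at -0.51 (89802 and 91500) and Psmc6 highest at -0.01 (4709 and 6770). The 11 non-ATPase subunits had a median of -0.38, and 10 of them were below 0. Psmd3, a scaffold subunit of the lid, was the lowest of all constitutive subunits at -0.63 (105552 and 98900). Psmd4, a receptor for ubiquitin chains, was the next of the non-ATPase subunits at -0.54, while Psmd14, the lid enzyme that removes ubiquitin, was at -0.12. Psmd8 at 0.02 (3863 and 5660) was the only one above 0. Centred on the trend of genes of their signal level, the ATPase and non-ATPase medians were both -0.04.

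Together 3 members were at least 1.5-fold lower, Psmd3, Psmb5 and Psme4, and 1 at least 1.5-fold higher, Psmb9. Across all measured genes 9.10% were lower and 9.81% higher by this fold, so the members again lay at or below the background. With scaling on the array medians 18 members were at least 1.5-fold lower, as were 28.6% of all genes. Psme4 encodes PA200, an activator that opens the core without ATP. It had the lowest value of all members, -0.68 (signals 1130 and 1020), but its dimmer probe, at 97.9 and 129, gave -0.13. Psme3, the nuclear relative of PA28, differed by -0.03.

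No assembly factor reached 1.5-fold, and neither did the inhibitor. Among the chaperones that build the base of the regulatory particle, Psmd5 was at -0.22, Psmd9 at -0.02 and Psmd10, also known as gankyrin, at 0.05. The dimmer Psmd9 probe, at 450 and 925, gave 0.51. Among the chaperones of core assembly, Psmg3 was lowest at -0.39 and Psmg1 highest at 0.08, with Psmg2 at -0.11 and Psmg4 at -0.03. The proteasome inhibitor Psmf1, also called PI31, differed by -0.13.

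Members known from other tissues were dim. Psmb11, the thymus-specific beta5 subunit, gave 3.42 and 3.14, not well above background in either genotype. Psma8, an alpha subunit of germ cells, was measured at 28.2 and 46.3, near the lowest measured signals of 12.3 and 11.7, and differed by 0.18 (SD 0.25). With normexp background correction in place of the scanner's, the difference of Psma8 was -1.35. Psmc3ip, which matched the rule by name but encodes a recombination factor of meiosis, differed by 0.05 (405 and 608). The probe named Psme2 on chromosome 11 (chr11:48759630-48759689, mm9) gave 8.65 in wild-type cells, which is not well above background, and 36.9 in ob/ob cells, at least 2.07-fold brighter. This bound sets the ob/ob value against the dimmest signal well above background on the wild-type array. Psme2 itself lies on chromosome 14, and whether RNA of Psme2 binds this probe was not tested.

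The differences of the members went with their brightness. Member signals were high, with a median at percentile 88.1 of all measured genes, and across the 48 members the level and the difference had a Spearman correlation of -0.61, as against -0.28 across all measured genes. These are correlations across genes that share the same 2 arrays. The trend of all genes fell from about -0.03 at the level of Psmc3ip to -0.45 at that of Psmb5. Where a member had more than 1 measured probe, the dimmer probe gave the higher difference in 11 of 11 genes, by 0.01 to 0.55 with a median of 0.15. The share over all genes with more than 1 measured probe is not given here, so this count cannot be called particular to the members.

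**Figure D2:**
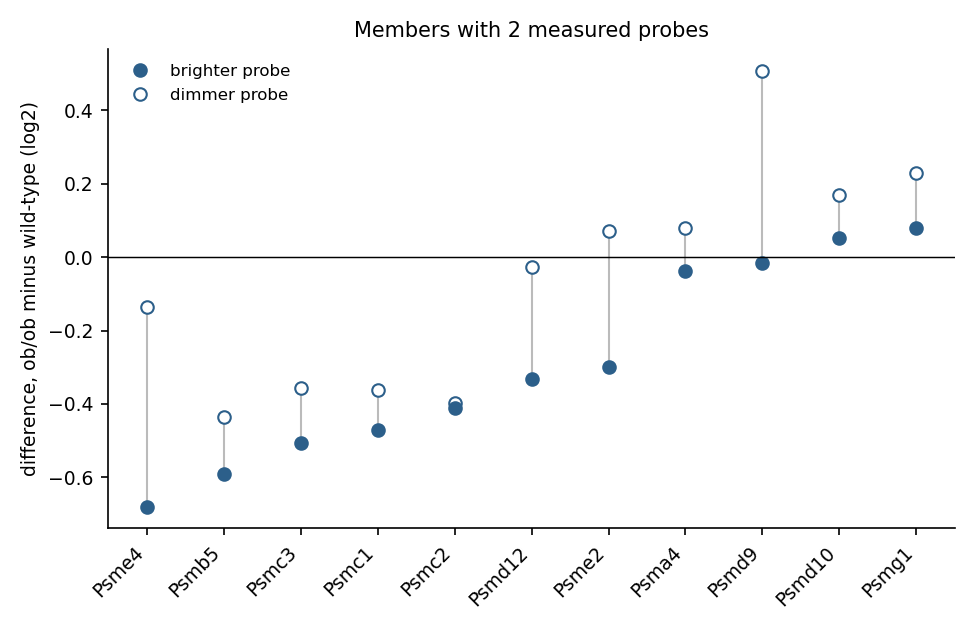
Difference between ob/ob and wild-type LSEC (vertical axis, log2) by the brighter probe (filled) and the dimmer probe (open) of the 11 members with more than 1 measured probe. The open point lies above the filled one in 11 of 11 genes, and the gap is largest for Psme4, at 0.55, and smallest for Psmc2, at 0.01.

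When each difference was centred on the trend of genes of the same level, the constitutive subunits lay on that trend and the inducible catalytic subunits above it. The constitutive median moved from -0.33 to 0.02, with 16 of 31 above 0 beside 51.7% of all measured genes, and the range became -0.18 to 0.30, from Psmd3 to Psma6. Psmb9 stood at 1.15, Psmb10 at 0.55 and Psmb8 at 0.51, again above all 31. In the same order, these values exceeded those of 94.8%, 88.0% and 86.7% of all measured genes. Psme1 and Psme2 stood at 0.29 and 0.10, inside the constitutive range. After centring, 1 of 48 members was at least 1.5-fold higher, Psmb9, and 1 lower, Psme4 at -0.61, against 11.2% and 5.49% of all measured genes. The lower values of the bright core and regulatory subunits were thus shared with other genes of their brightness, and 7 rather than 11 dimmer probes remained above their brighter partner.

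**Figure D3:**
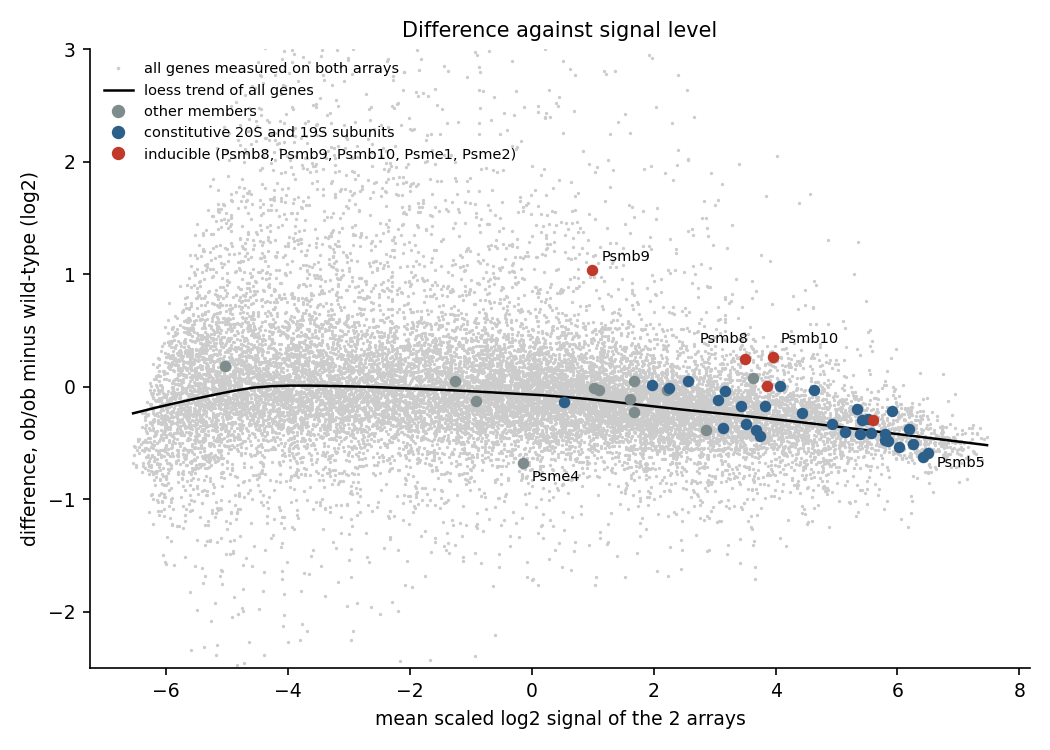
Difference between ob/ob and wild-type LSEC (vertical axis, log2, whose limits leave out the most extreme genes) against the mean scaled log2 signal of both arrays (horizontal axis) for all genes measured on both arrays in grey, with their loess trend as a line and the members in colour. The constitutive subunits in blue follow the line downwards to the right, and Psmb9, Psmb8 and Psmb10 in red lie above it.

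**Figure D4:**
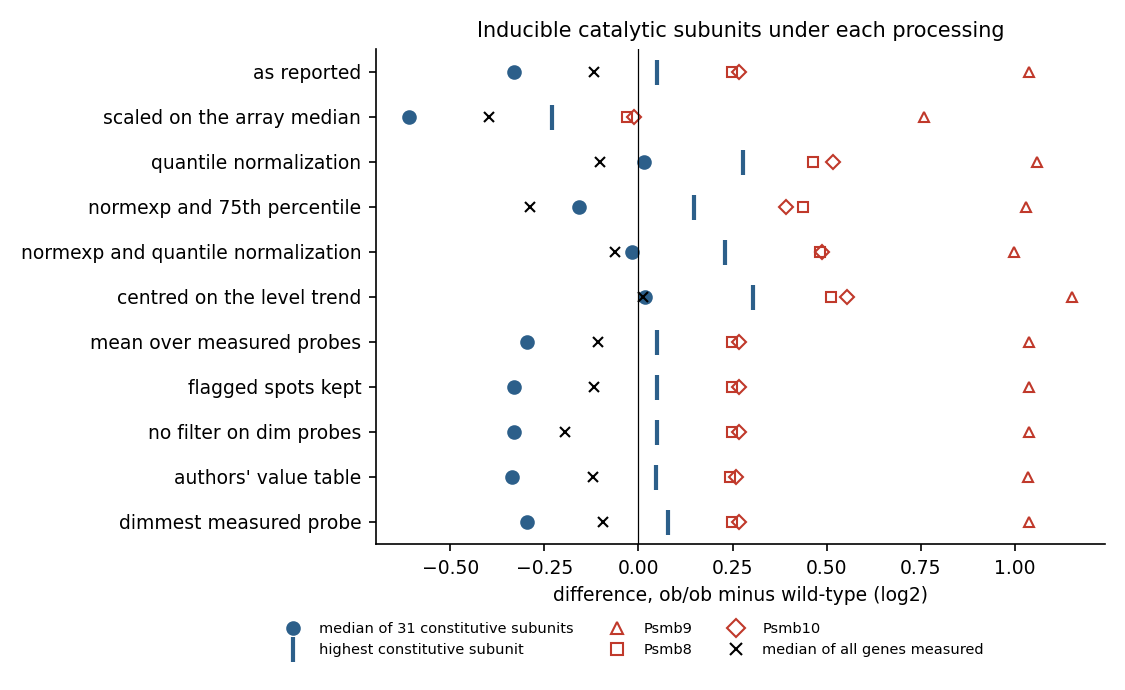
Differences of Psmb8, Psmb9 and Psmb10 (open red symbols), the median and the highest value of the 31 constitutive subunits (blue point and bar) and the median of all measured genes (cross) under the reported processing and 10 alternatives (horizontal axis, log2). The red symbols lie to the right of the blue bar in every line, while their place relative to 0 shifts with the scaling.

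Psmb9 and Psmb8 lie near each other in the MHC region of chromosome 17. The order in the RefSeq annotation of GRCm38.p6 is Psmb9, Tap1, Psmb8, Tap2. Tap1 and Tap2 encode the transporter that carries proteasome products into the endoplasmic reticulum. Tap1 had signals of 631 and 1149, a difference of 0.33, and Tap2 of 7228 and 15900, a difference of 0.60. All 4 genes of this stretch were thus above 0, as were 37.3% of all measured genes. They were also above the level trend, as were 51.7% of all measured genes, and there Tap1 stood at 0.39 and Tap2 at 0.85. With scaling on the array medians Psmb8 was below 0, at -0.03. Psme1 and Psme2 are close neighbours on chromosome 14.

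Psmb9 and Tap1 start back to back and share 225 bases between their starts, at chr17:34187331-34187555 of GRCm38.p6. The stretch is printed from RefSeq on the strand of Psmb9, the minus strand, because both genes read from it had higher values in ob/ob cells. Capitals mark the matches to the motifs searched on both strands.
Psmb9-Tap1: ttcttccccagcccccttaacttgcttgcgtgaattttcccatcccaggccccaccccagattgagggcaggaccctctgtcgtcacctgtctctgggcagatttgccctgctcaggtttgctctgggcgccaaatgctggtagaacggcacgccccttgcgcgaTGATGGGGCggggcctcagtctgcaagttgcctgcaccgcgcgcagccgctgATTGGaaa
The matches are to TGANNNNGC, a loose pattern searched as the antioxidant response type, and to a CCAAT box in reverse. Whether any factor binds these bases was not tested. No match to the interferon regulatory factor type (GAAA, 2 free bases, GAAA) or the NF-kB type (GGGA, 2 free bases, TTCC) was found in these letters. Nor was the gamma-activated site type, TTCNNNGAA, found there. In windows of 300 bases around gene starts, TGANNNNGC occurs in 41.3% of 32851 promoter windows and CCAAT in 37.4%, so both are common. In its own window Psme1 held the interferon regulatory factor type, found in 3.44% of windows. The NF-kB type occurs in 1.47%. Psmb8, Psmb10, Psme2, Psmb5 and Psmb6 held neither the interferon regulatory factor type nor the NF-kB type, and Psmb7 was not matched. The gamma-activated site type occurs in 8.30% of windows. Psmb8 held it, as ttcccagaa from -97 to -89 relative to its start, and the other windows searched for these genes did not. The search describes letters only.

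Most genes that work with the proteasome were below 0. Of 24 partners and regulators, 22 were found and measured, and 0 were past 2-fold in either direction. Of these, 18 were below 0, beside 62.7% of all measured genes. The median was -0.21, or -0.01 after centring on the level trend. The polyubiquitin gene Ubb was among the lowest at -0.56. The thioredoxin-like proteasome partner Txnl1 was highest at 0.33, followed by the scaffold Ecpas at 0.21. Nfe2l1, the transcription factor of proteasome genes, differed by 0.19 and the core assembly factor Pomp by -0.15.

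Genes of MHC class I peptide loading did not differ in 1 direction. All 16 were measured, with a median of 0.06 and 0 past 2-fold. Tap2 at 0.60 and the tapasin gene Tapbp at 0.46 were highest. The class I heavy chains were lowest, H2-D1 at -0.63 (134630 and 126000) and H2-K1 at -0.59 (152236 and 146375). After centring on the level trend, 12 of 16 were above 0, beside 51.7% of all measured genes, and these heavy chains stood at -0.16 and -0.10.

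Ifng, which encodes interferon-gamma, was not well above background in either genotype. Of 22 genes of its signalling and targets, 20 were measured, 5 were at least 2-fold higher and 0 lower, beside the 5.82% and 2.29% of all measured genes, with a median of 0.18. With scaling on the array medians only Cxcl9 was past 2-fold and the median was -0.10. After centring on the level trend the median was 0.44 and 17 of 20 were above 0, beside 51.7% of all measured genes. Then 6 were at least 2-fold higher, beside 6.16% of all measured genes. Before centring, the chemokine Cxcl9 was highest at 1.45 (730 and 2880) and the GTPase Gbp2 followed at 1.23 (3339 and 11300). The others past 2-fold were Icam1 at 1.21, Cd274 at 1.07 and Gbp5 at 1.06. The kinase Jak2 and the inhibitor Socs1 were lowest at -0.56 and -0.50. Irf1, a factor that acts on immunoproteasome genes, differed by 0.14, or 0.44 after centring on the level trend.

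Markers of other liver cells were higher alongside Psmb9 and the interferon-gamma targets, and their part in those differences was not tested. The 14 sinusoidal endothelial markers were all measured, with a median of -0.20 and 0 past 2-fold, so the defining genes of the labelled cell type were well above background in both genotypes. Of 14 Kupffer cell and macrophage markers, all measured, 12 were at least 2-fold higher and their summed scaled signal went from 59.3 to 164, or 2.77-fold. Of 16 lymphocyte markers 6 were measured on both arrays with a median of 0.20, 4 (Cd3d, Cd3g, Cd2 and Gzmb) with ob/ob RNA only, and 6 with neither, among them Cd8a. The summed scaled signal of the 6 measured ones went from 0.745 to 0.979. The leukocyte marker Ptprc is 1 of them and differed by 1.82 (88.8 and 454), and without it the other 5 summed to 0.655 and 0.662. Both sums leave out the 4 markers measured with ob/ob RNA only. With ob/ob RNA, Gzmb was at least 8.80-fold brighter, Cd3d 6.44-fold, Cd3g 2.01-fold and Cd2 1.205-fold. Of 8 dendritic cell markers 5 were measured, with Ccr7 and Itgax at least 2-fold higher and sums of 20.5 and 18.1. Siglech (19506 and 21800) made up most of these sums, and without it the other 4 went from 0.725 to 2.90, or 4.01-fold. Flt3 was measured with ob/ob RNA only, at least 2.66-fold brighter, and Xcr1 and Cd209a with neither. All 11 measured hepatocyte markers of 12 and all 9 measured stellate cell markers of 10 were at least 2-fold higher, with summed scaled signals that went from 8.36 to 51.3 and from 8.66 to 36.4. In such mixed RNA, more cells of a type and more RNA per cell cannot be told apart.

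**Figure D5:**
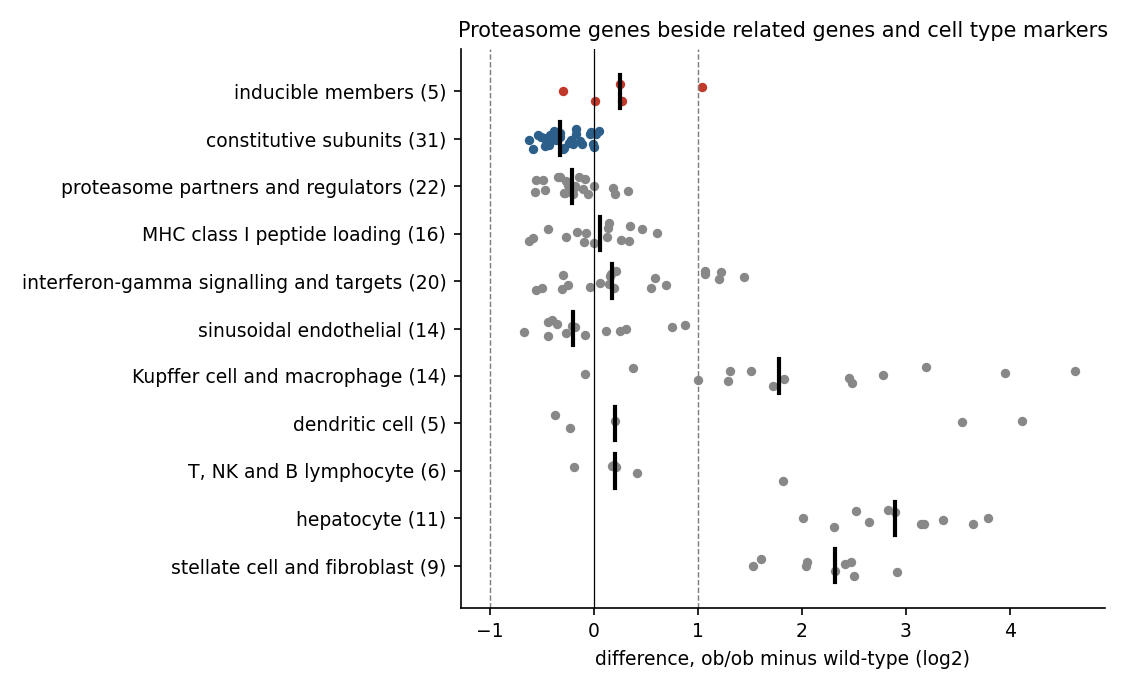
Difference between ob/ob and wild-type LSEC (horizontal axis, log2) of the inducible members, the constitutive subunits, related gene lists and cell type markers, with points for the genes measured on both arrays (number in brackets), bars for medians and dashed lines at 2-fold. Constitutive subunits, partners and sinusoidal markers have medians below 0, and macrophage, hepatocyte and stellate cell markers have medians of 1.78, 2.89 and 2.32.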

How the data were processed

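Each deposited file holds the linear intensity of every spot of 1 array. Background had been subtracted and spatial trends removed, per the file headers, by Agilent Feature Extraction, whose version the submitters' processing notes give as 11.0.1.1. The authors' deposited value table holds a ratio, the processed intensity over the 75th percentile of its array (medians 0.614 and 0.648, 24868 features, 68 of the 70 member spots), checked against the scanner values, so its scale, centring and direction are known.

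Of 43020 non-control spots, 236 flagged as non-uniform or as outliers on either array were dropped, none of them a member, and 0 were saturated. Signals were well above background for 58.6% (wild-type) and 64.8% (ob/ob) of spots. Spots of a probe were averaged on the log2 scale. A gene was taken by its brightest probe measured on both arrays, where measured means that over 50% of its spots were well above background. Genes were named through RefSeq accessions (GRCm38.p6, names and promoter windows only). The local background of member spots ranged from 52.5 to 69. Probes with at least 9 kept spots, all well above background, numbered 224 and had a median SD of a single-spot difference of 0.05. The level trend is a loess curve (span 0.3, statsmodels 0.14.6), and normexp used limma 3.58.1 with an offset of 50. Folds of 2 and 1.5 mark calls. The steps were tested on simulated data.

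Named by rule are the inducible members and their counterparts, the highest and lowest member of each role, members past 1.5-fold or not measured, and the 2 highest and 2 lowest genes of each related list, of which 1 is not reported here. Psmb2, Psmb4, Psmd4, Psmd9, Psmd14, Psmg2, Psmg4, Tap1, Nfe2l1, Pomp, Icam1, Cd274, Gbp5, Irf1 and the markers were named after their values were seen. The members and lists were chosen with earlier results of these data known.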

Additional observations from a re-analysis of the deposited data

How the results depend on the processing

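Psmb8, Psmb9 and Psmb10 exceeded all 31 constitutive subunits under each of the 10 alternatives, and the gap of 0.58 between the medians stayed from 0.45 to 0.58. Scaling on the array median, keeping flagged spots and the authors' table could hardly change either result. The settings that could move Psmb8, Psmb9 and Psmb10 relative to other genes are quantile normalization, normexp and centring on the level trend. The medians themselves moved with the scaling. With scaling on the array median the inducible median was -0.030 and the constitutive median -0.61, with 0 members past 2-fold upwards and 18 past 1.5-fold downwards, a setting that makes 28.6% of all genes 1.5-fold lower. Quantile normalization gave 0.46 and 0.016, normexp with quantile normalization 0.48 and -0.017, and centring on the level trend 0.51 and 0.018, with 1 member at least 1.5-fold lower in each, where 11.05%, 3.56% and 5.49% of all genes were. Psmb9 was 0.997 with normexp and quantile normalization, just under the limit, so that 0 members were 2-fold higher there, beside 2.71% of all genes. With normexp and the 75th percentile 1 member was at least 2-fold lower, Psma8, as were 21.1% of all genes. The mean over probes, and the dimmest probe, an alternative chosen after seeing the data, each gave 1 member at least 1.5-fold lower, beside 8.27% and 8.60% of all genes. Without the filter on dim probes 2 members were at least 2-fold and 2 at least 1.5-fold higher, through the dim Psme2 probe on chromosome 11, beside 8.41% and 13.8% of all genes. Of 250 values of 25 named members under the alternatives, 177 stayed within the scanner error, 44 moved up and 29 moved down. The sign differed from the reported one in 35 values, of which 0 belong to a member reported past 1.5-fold and 1, Psma8 at -1.35, passed 1.5-fold itself.

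Arrays were not left out in turn, since each genotype has 1, and no difference carries the spread between mice or preparations. No paired analysis was possible because each genotype has 1 array and the labels give no replicate number. Signals near background limit Psmb11, Psma8 and the Psme2 probe on chromosome 11.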
